A study of Arabidopsis thaliana with 12 samples.

Results

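Oxygenic photosynthesis begins in 2 multiprotein complexes of the thylakoid membrane. Light-harvesting chlorophyll a/b-binding proteins gather light and pass its energy to photosystem II, which oxidises water, while photosystem I carries the electrons on from plastocyanin to ferredoxin. The core reaction-centre proteins are encoded in the plastid, whereas the antenna proteins, many small subunits and nearly all assembly factors are nuclear genes whose products are imported into the chloroplast. The genes described here are 6 such nuclear genes of Arabidopsis thaliana. They are the antenna gene LHB1B2 (AT2G34420), the photosystem II subunit genes PSBW (AT2G30570) and PSBY (AT1G67740), the photosystem I subunit gene PSAN (AT5G64040), and the photosystem II assembly factor genes PSB27 (AT1G03600) and LPA19 (AT1G05385).

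They were chosen by name from the probes that the platform annotation assigns to exactly 1 gene, which numbered 692 of the 3439 array probes. The brightest probe was to be taken for each gene, but each of the 6 had 1 such probe. The choice was made with earlier results of these data known, the LHB1B2 difference among them, so its p is no independent evidence. LPA19 had been picked out as one of the largest falls at high CO2, so its difference between the groups is given as a description without a test.

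Total RNA was taken from wild-type plants of ecotype Columbia 0 in 12 samples. Of these, 6 came from plants at a normal CO2 level, labelled 0 d, and 6 from plants moved for their last 6 d to air with 1% CO2. The labels give neither the organ nor the age of the plants, and the 6 d of growth may differ between the groups together with the CO2 level. None of 6 green-tissue marker genes, namely RBCS1A, RBCS1B, RBCS2B, RBCS3B, RCA and GAPA, had a single-gene probe, so the tissue was not checked against markers.

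Deposited intensities ran on a linear scale that ended at the same top value, just under 100, in every sample. Sample medians were 0.160 to 0.166 in normal-CO2 samples 1 to 4 and 0.255 to 0.256 in normal-CO2 samples 5 and 6. They were 0.340 to 0.390 in high-CO2 samples 1 to 4 and 0.174 to 0.175 in high-CO2 samples 5 and 6, so samples 5 and 6 stood apart from the others of their label in both groups. Every one of the 12 samples correlated best with its neighbour in the pairs 1-2, 3-4 and 5-6 (r across probes from 0.919 to 0.981), and the labels do not say whether such pairs are repeats of 1 RNA. Values are therefore given over 12 samples and over 3 pair means per group. Nothing states that the samples came from separate plants, and p-values over 12 samples measure only the spread between these samples. Over 12 samples limma called 12.5% of the 3349 probes tested after Benjamini-Hochberg adjustment. Without samples 5 and 6 of both groups it called 37.9%, and over pair means 0.0% (408 probes had an unadjusted p under 0.05).

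Within a sample, probes can be ranked by brightness, and this order does not depend on how the sample is scaled. A rank describes the probe and its label uptake as well as the transcript, so it is not a transcript abundance. PSBW, PSAN, LHB1B2, PSB27 and PSBY all lay in the brightest part of the array. PSBW ranked between 12 and 22 from the brightest of 3439 probes in the 12 samples. PSAN ranked between 50 and 89, LHB1B2 between 77 and 202, PSB27 between 92 and 305, and PSBY between 112 and 362. LPA19 was far dimmer, with ranks from 451 to 2387.

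**Figure D1:**
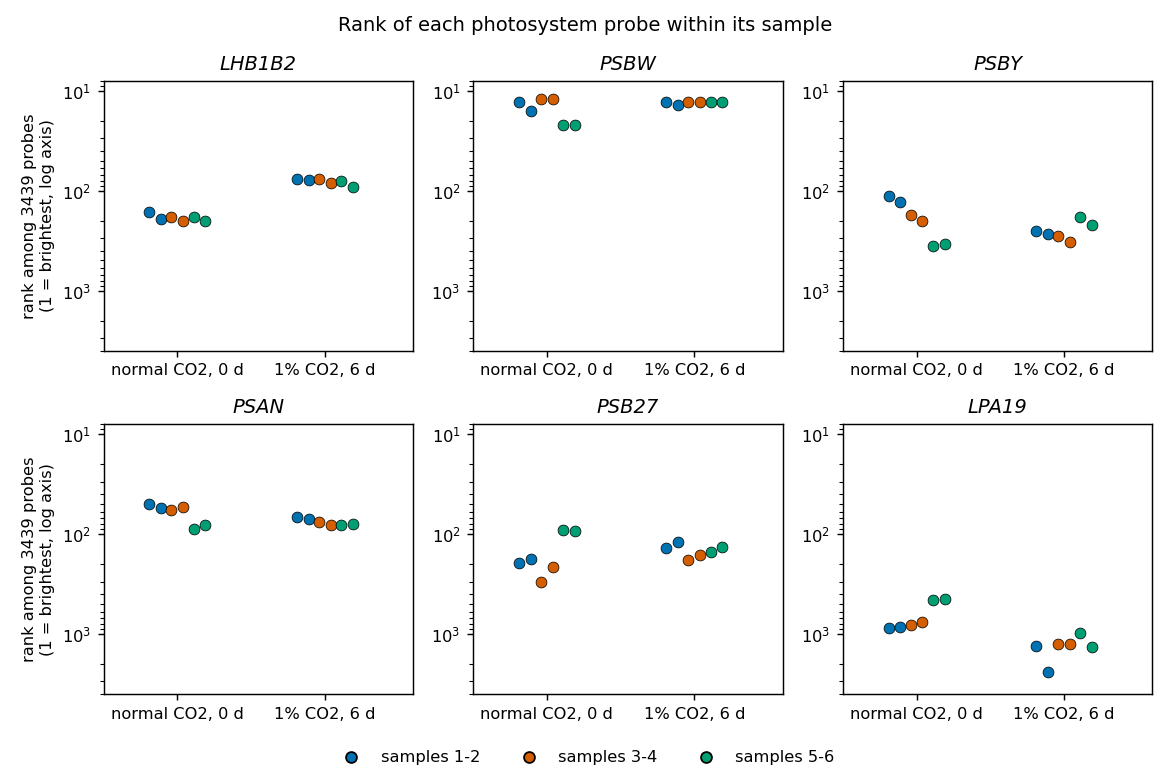
Rank of each probe within its sample (1 = brightest of 3439, log axis, brightest at the top) at normal CO2 (0 d) and at 1% CO2 (6 d); each point is 1 sample, coloured by pair. LHB1B2 lies at ranks 77 to 93 at high CO2 and 165 to 202 at normal CO2, while PSBW, PSBY, PSAN and PSB27 overlap between the groups.

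LHB1B2 belongs to the LHCB1 genes, whose pigment-binding proteins are the main components of the mobile antenna of photosystem II. Its deposited intensity had a minimum of 4.21, a median of 4.68 and a maximum of 4.97 at high CO2. At normal CO2 the minimum was 2.26, the median 2.39 and the maximum 2.62. The lowest high-CO2 value exceeded the highest normal-CO2 value, so the groups did not overlap, and samples 5 and 6 lay with the other 4 of their group. On the deposited scale 7.82% of the tested probes had groups that did not overlap.

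Each of the 9 combinations of a high-CO2 with a normal-CO2 pair mean gave a higher LHB1B2 value at high CO2, by 1.87-fold to 2.2-fold after quantile normalization. The log2 difference over 12 samples was 1.04 (95% interval 0.76 to 1.32, limma adjusted p = 0.00261). LHB1B2 thus passed among the 12.5% of probes that did. With values as deposited the difference was 0.94 (limma adjusted p = 0.00946, with 11.6% of all probes called). The fit that left out samples 5 and 6 in each group gave 1.06 (limma adjusted p = 0.000343) and called 37.9% of probes. Over 3 pair means per group the interval widened to 0.43 to 1.65 and the call ended (limma adjusted p = 0.407). With the pairs as a random block the limma adjusted p was 0.0993. Neither fit called any probe. In each of them the LHB1B2 value equalled the smallest adjusted p, but other probes shared that value. By unadjusted limma p, LHB1B2 came 24th over pair means and 8th with the pairs as a random block.

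The call also ended when each sample was divided by its median, where the log2 difference was 0.35 (95% interval -0.25 to 0.96, limma adjusted p = 0.424) and 9.78% of all probes passed. Median-scaled LHB1B2 values spanned 2.76 to 6.95 in the high-CO2 samples and 2.27 to 3.93 in the normal-CO2 samples, so there the groups overlapped. The ranks did not overlap under any scaling of a sample. The percentile rank averaged 97.6 ± 0.180 (SD, n = 6) in the high-CO2 samples and 94.5 ± 0.402 (SD, n = 6) in the normal-CO2 samples. The difference of 3.11 percentile points had a two-sided exact permutation p = 0.00216, the smallest that 924 splits can give (0.0259 adjusted over the 3349 probes). The same rank test called 10.7% of all probes. Over pair means the exact permutation p was 0.1, the smallest that 3 against 3 allows.

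In the order of protein-coding genes in the RefSeq annotation of TAIR10.1, the gene next to LHB1B2 is LHB1B1 (AT2G34430), another LHCB1 gene. The LHCB1 genes are close copies of each other. No probe sequence was available, so whether this probe also detects the other copies is not known. Any signal from them could not be told apart from that of LHB1B2. As in any bulk sample, fewer cells expressing a gene and less RNA per cell cannot be told apart either.

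**Figure D2:**
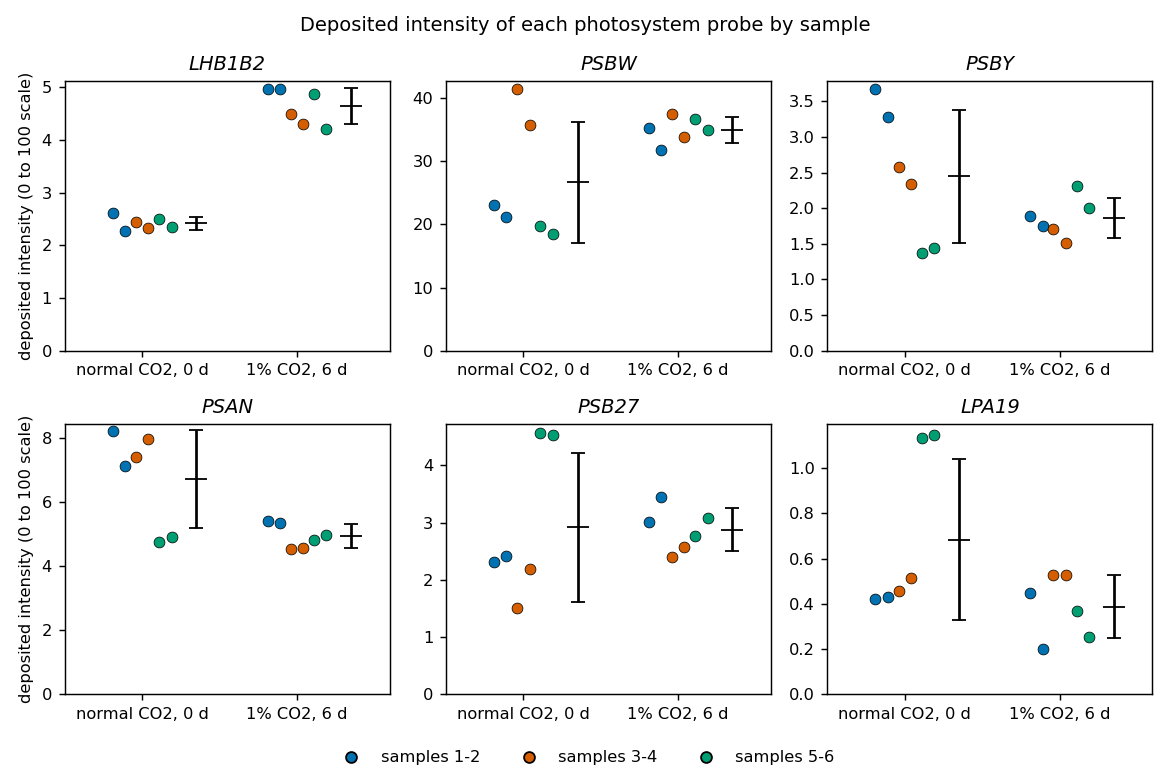
Deposited intensity (scale from 0 to just under 100, axes starting at 0) of the 6 probes in each sample, coloured by pair, with the group mean and SD as a bar (n = 6 each). LHB1B2 separates the groups, whereas normal-CO2 samples 5 and 6 lie apart from normal-CO2 samples 1 to 4 in PSBY, PSAN, PSB27 and LPA19.

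PSBW is a small membrane subunit that holds photosystem II and its antenna together in supercomplexes. Its deposited intensity had a minimum of 31.7, a median of 35.1 and a maximum of 37.5 at high CO2, against 18.6, 22.1 and 41.5 in the normal-CO2 samples. The high-CO2 samples lay close together and inside the range of the normal-CO2 samples. For samples 1-2, 3-4 and 5-6 in turn, the normalized pair means in the high-CO2 group were 32.1, 33.1 and 33.1, and those in the normal-CO2 group 29.4, 36.8 and 17.0. The lowest of the 6 was normal-CO2 pair 5-6. The log2 difference was 0.32 (95% interval -0.17 to 0.80, limma adjusted p = 0.364). The interval thus holds a fall down to -0.17, no difference and a rise of up to 0.80. Leaving out samples 5 and 6 in each group gave -0.01 (95% interval -0.33 to 0.31, limma adjusted p = 0.976).

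PSBY is made as a precursor that is cut into short hydrophobic peptides of photosystem II. Deposited intensities had a minimum of 1.51, a median of 1.82 and a maximum of 2.31 at high CO2, against 1.38, 2.45 and 3.67 in the normal-CO2 samples, so the groups overlapped. Normalized, the high-CO2 pairs averaged 1.74, 1.52 and 2.25 and the normal-CO2 pairs 3.44, 2.41 and 1.31. In pairs 1-2 and 3-4 both normal-CO2 means lay above both high-CO2 means, and in pair 5-6 the normal-CO2 mean was the lowest of all 6. The log2 difference over 12 samples was -0.29 (95% interval -0.89 to 0.31, limma adjusted p = 0.506), and -0.90 after median scaling (95% interval -1.87 to 0.08, limma adjusted p = 0.203). When samples 5 and 6 were left out in each group, PSBY fell by 0.82 on the log2 scale (limma adjusted p = 0.00816). That fit called 37.9% of all probes. Over the 4 remaining pair means, a fit chosen after seeing the data, PSBY did not pass (limma adjusted p = 0.136), and neither did any other probe.

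PSAN is a subunit of photosystem I on the lumen side, where plastocyanin docks. Deposited intensities had a minimum of 4.53, a median of 4.89 and a maximum of 5.41 at high CO2, against 4.73, 7.25 and 8.20 in the normal-CO2 samples. Normal-CO2 samples 1 to 4 lay above all high-CO2 samples, and normal-CO2 samples 5 and 6 lay among the high-CO2 samples. After normalization the high-CO2 pairs averaged 5.66, 5.10 and 4.94, and the normal-CO2 pairs 7.49, 7.01 and 4.73. The log2 difference was -0.27 (95% interval -0.64 to 0.11, limma adjusted p = 0.312), and -1.0 after median scaling (95% interval -1.77 to -0.23, limma adjusted p = 0.0853). PSAN fell by 0.43 on the log2 scale when samples 5 and 6 were left out in each group (limma adjusted p = 0.0112, with 37.9% of all probes called). It did not pass over the remaining pair means (limma adjusted p = 0.212), where no probe passed.

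PSBY and PSAN also passed when samples 5 and 6 were left out at normal CO2 alone, with log2 differences of -0.67 and -0.47 (limma adjusted p = 0.0465 and 0.0202, with 14.4% of all probes called). When samples 5 and 6 were left out at high CO2 alone, another fit chosen after seeing the data, the differences were -0.45 and -0.23 and neither passed (limma adjusted p = 0.328 and 0.421, with 26.9% of all probes called). The part of the sample scaling, the sample source or the plants in the low values of normal-CO2 samples 5 and 6 was not tested.

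PSB27 is a lumen protein that binds photosystem II during its assembly and takes part in its repair after damage by light. Deposited intensities had a minimum of 2.40, a median of 2.88 and a maximum of 3.44 at high CO2, against 1.5, 2.36 and 4.57 in the normal-CO2 samples. Normal-CO2 samples 5 and 6 were the highest of the 12 and normal-CO2 sample 3 was the lowest, so the high-CO2 samples lay inside the normal-CO2 range. The normalized means of the high-CO2 pairs were 3.22, 2.57 and 2.97, against 2.40, 1.81 and 4.41 for the normal-CO2 pairs. The log2 difference was 0.13 (95% interval -0.43 to 0.69, limma adjusted p = 0.777). Leaving out samples 5 and 6 in each group gave 0.48 (95% interval 0.04 to 0.91, limma adjusted p = 0.0823), which did not pass.

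LPA19 is a protein related to PSB27 that helps to process the D1 reaction-centre protein of photosystem II during assembly. Its deposited intensity had a minimum of 0.198, a median of 0.407 and a maximum of 0.529 at high CO2, against 0.420, 0.484 and 1.15 in the normal-CO2 samples. On this scale the groups overlapped, and high-CO2 samples 3 and 4 lay above normal-CO2 samples 1 to 4. After quantile normalization all 6 high-CO2 samples (0.134 to 0.481) lay below all 6 normal-CO2 samples (0.542 to 1.04), as did their ranks. Groups that did not overlap were found for 8.33% of probes on the normalized scale and for 8.36% by rank. This separation belongs to the difference for which LPA19 was picked.

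LPA19 averaged 0.238, 0.363 and 0.407 in the normalized high-CO2 pairs and 0.549, 0.596 and 1.03 in the normal-CO2 pairs. The log2 difference was -1.14 over 12 samples, -0.77 with values as deposited, -1.35 after median scaling and -1.04 with samples 5 and 6 of each group left out. The sign was negative under each of these, and the size depended on the scaling. The 9 combinations of pair means gave ratios of high over normal CO2 from 0.208 to 0.730.

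**Figure D3:**
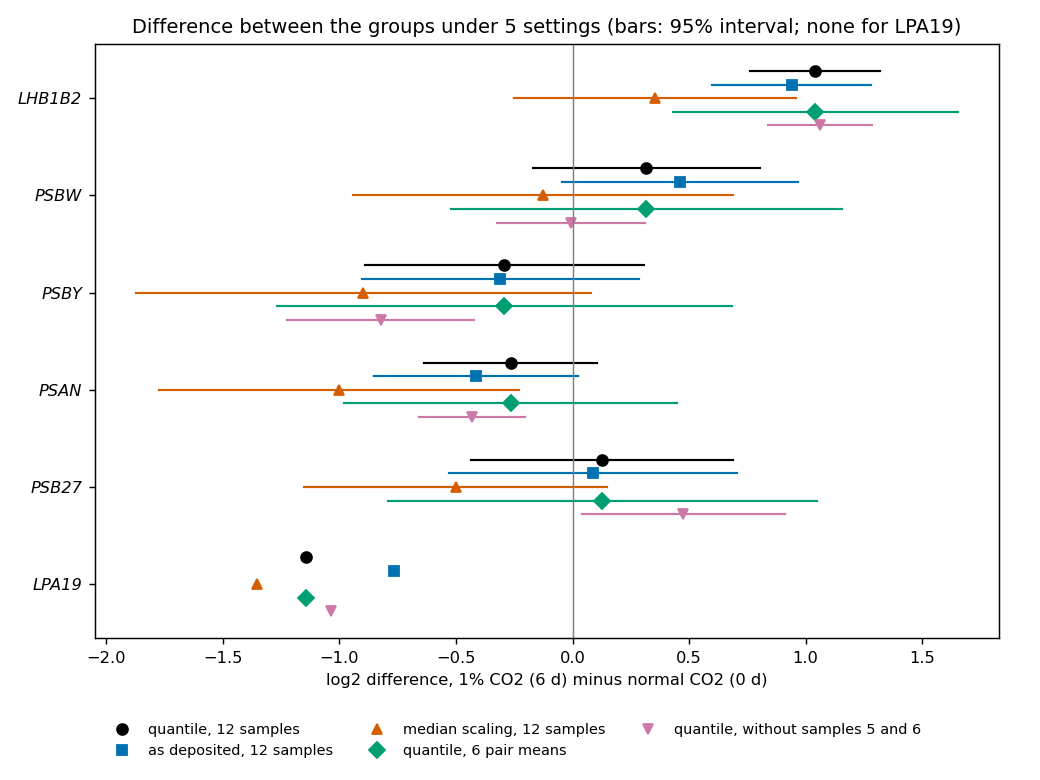
Log2 difference between 1% CO2 (6 d) and normal CO2 (0 d) for each gene under 5 settings, with the 95% interval from limma (none is drawn for LPA19, which was picked for its difference). LHB1B2 lies near 1 except after median scaling (0.35), PSBW changes sign, and PSBY moves from -0.29 to -0.82 without samples 5 and 6.

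The 5 genes other than LPA19 thus gave 1 rise and no fall over 12 samples, in a fit that called 5.52% of all probes as higher and 6.96% as lower. By the size of the log2 difference, LHB1B2 stood at the 88.3 percentile of the probes tested. PSBW stood at 37.1, PSBY at 34.4, PSAN at 32.0 and PSB27 at 17.0, all below the median probe in this fit. That order depended on the setting. After median scaling PSBY (-0.90) and PSAN (-1.0) exceeded the median absolute difference of 0.55, and PSBW and PSB27 did not. Without samples 5 and 6 of both groups PSBY (-0.82) exceeded a median of 0.55, and PSBW, PSAN and PSB27 did not. The genes also differed in how far samples of one label spread. The coefficient of variation of the deposited intensity at normal CO2 was 5.45% for LHB1B2, 22.7% for PSAN, 36% for PSBW, 38.3% for PSBY, 44.7% for PSB27 and 52.0% for LPA19. At high CO2 it was 7.40%, 7.66%, 5.84%, 14.9%, 13.1% and 36.3% for the same genes. By this measure PSBW, PSBY, PSAN and PSB27 varied more among normal-CO2 than among high-CO2 samples, and so they did after normalization. For LPA19 the order depended on the scale, since after normalization its coefficient of variation was 32.8% at normal CO2 and 33.5% at high CO2.

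In PSBW, PSBY, PSAN and PSB27 most of that spread lay between pairs and not within them. The SD of log2 values was 0.11 within pairs and 0.41 between pair means of a group for PSBW. It was 0.12 against 0.54 for PSBY, 0.06 against 0.26 for PSAN and 0.16 against 0.48 for PSB27. The within-pair SD of PSBW is affected by equal ranks. In pairs 3-4 and 5-6 of both groups the 2 samples shared a rank, and quantile normalization made their values equal. Deposited values in those pairs differed 1.05-fold to 1.16-fold. In LHB1B2 the pair means of a group differed no more than the samples of a pair did (0.06 against 0.09). LPA19 had a large spread within pairs (0.42), because high-CO2 samples 1 and 2 differed 2.56-fold, a difference larger than that of 95.3% of probes between these samples. For the median probe these 2 samples differed 1.16-fold.

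The pair means show which genes stood high or low together. In normal-CO2 pair 5-6 the means of PSBW, PSBY and PSAN were the lowest of the 6, for PSAN by a small margin (4.73 against 4.94 in high-CO2 pair 5-6). In the same pair PSB27 and LPA19 had their highest means. Correlations were computed for all 15 gene pairs over the 6 pair means, with two-sided exact permutation tests and Benjamini-Hochberg adjustment over the 15. For LHB1B2 and LPA19 the groups form separate clusters of 3 pair means, so pooled correlations with these genes are not given.

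Among the other 4 genes, PSBY and PSAN had the most similar pair means (r = 0.83, exact p = 0.0389, adjusted 0.25, and rho = 0.83, exact p = 0.0583, adjusted 0.385). Without normal-CO2 pairs 1-2 and 5-6, the farthest from the median in PSBY, r was 0.51. PSBW and PSB27 ran in opposite directions (r = -0.80, exact p = 0.05, adjusted 0.25, and rho = -0.64, exact p = 0.194, adjusted 0.583). Without normal-CO2 pairs 3-4 and 5-6 their r was 0.56, while over the high-CO2 pair means alone it was -0.77. The sign thus depended on which of these few pair means were used. PSB27 and PSAN had r = -0.75 (exact p = 0.0847, adjusted 0.318) and rho = -0.77 (exact p = 0.103, adjusted 0.385), and PSBY and PSB27 had r = -0.65 (exact p = 0.156, adjusted 0.467) and rho = -0.77 (exact p = 0.103, adjusted 0.385). PSBW correlated with PSBY at r = 0.49 and rho = 0.32 (exact p = 0.322 and 0.556, adjusted 0.69 and 1.0) and with PSAN at r = 0.43 and rho = 0.23 (exact p = 0.472 and 0.672, adjusted 0.75 and 1.0). None of these 6 gene pairs passed after adjustment. All points of a pair share their arrays and the scaling of those arrays.

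**Figure D4:**
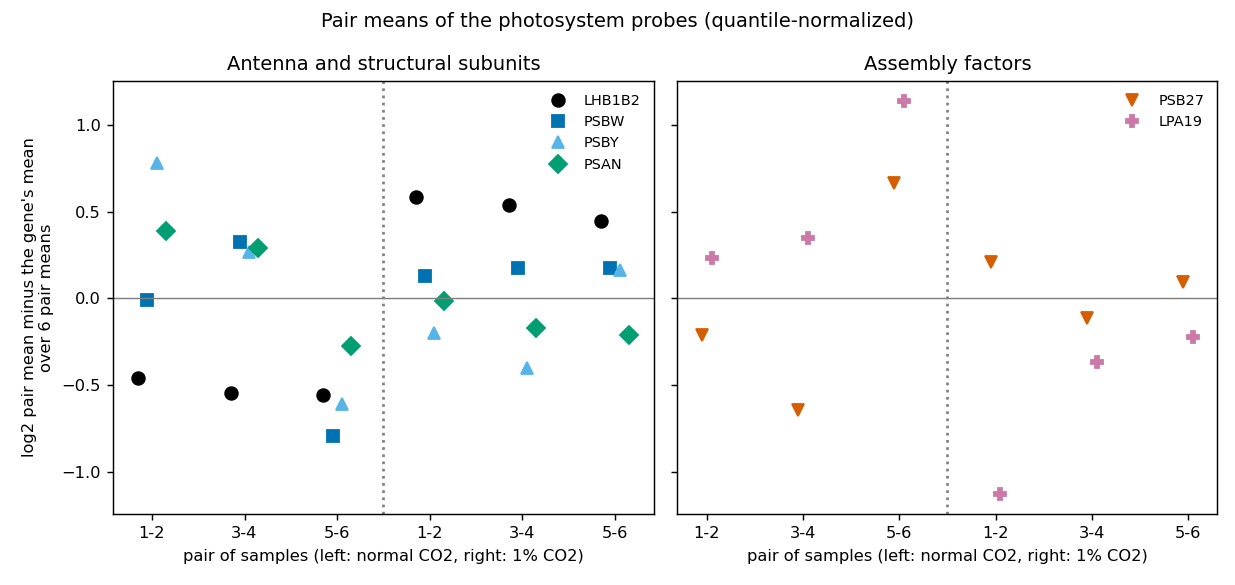
Log2 mean of each pair of samples minus the gene's mean over the 6 pair means, for the antenna and structural subunit genes (left) and the assembly factor genes (right); normal-CO2 pairs stand left and 1% CO2 pairs right of the dotted line. In normal-CO2 pair 5-6, PSBW, PSBY and PSAN have their lowest and PSB27 and LPA19 their highest pair means.

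For each gene, the single-gene probes with the most similar log2 values over the 12 samples were sought among 446 others that lay above the floor in all samples. PSBY was most like PRK, the phosphoribulokinase of the Calvin-Benson cycle (r = 0.97), and AT3G32930 (r = 0.96). PSAN was nearest to AT3G25840 (r = 0.94) and AT1G06510 (r = 0.91), and among these probes PSBY came 8th for PSAN. PSBW was nearest to AT5G33390 (r = 0.92) and ATSIK (r = 0.92), and PSB27 to AT4G18180 (r = 0.88) and AT5G50350 (r = 0.87). These likenesses stayed about as high after the group means were removed (r from 0.88 to 0.97), which means that they ran along the differences among samples of one label.

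LHB1B2 was nearest to AT1G30700 (r = 0.94) and PRA1.B6 (r = 0.89), a prenylated Rab acceptor of membrane traffic. With the group means removed these fell to r = 0.16 and 0.36, so the likeness to LHB1B2 lay mostly in the difference between the groups. LPA19 was nearest to AT4G30740 (r = 0.91) and AT1G21660 (r = 0.88), with 0.86 and 0.71 once group means were removed. These are descriptions over 12 samples that are not independent, and they carry no test.

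The wider set of nuclear photosystem genes was read from a list of 92 genes for antenna proteins, subunits of both photosystems, and assembly and repair factors. Only 9 had a single-gene probe, and 7 more lay on probes shared by several genes and are not named. Among the 8 other than LPA19, 1 rose (LHB1B2) and 1 fell (SECE1) over 12 samples in limma, which called 5.52% of all probes as higher and 6.96% as lower. Over pair means and with the pairs as a random block neither was called, nor was any of the 3349 probes. The median log2 difference of the 9 was -0.09, against -0.02 over all probes tested. The 9 include LPA19, which was picked for its fall, so this median is not read as a shift of the list. In the antenna, 1 of 22 listed genes was measured. Of the photosystem II subunits it was 2 of 11, of the photosystem I subunits 1 of 12, and of the assembly and repair factors 5 of 47.

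Besides PSB27 and LPA19, the measured assembly and repair genes were SECE1, AT1G22700 and AT1G54500. SECE1, a subunit of the Sec translocase that inserts proteins into the thylakoid membrane, averaged 0.358, 0.194 and 0.325 in the normalized high-CO2 pairs and 0.882, 0.673 and 0.539 in the normal-CO2 pairs. Its log2 difference was -1.28 (limma adjusted p = 0.0111), which did not pass over pair means (limma adjusted p = 0.407), where no probe passed. AT1G22700 differed by 0.69 (95% interval 0.00 to 1.38, limma adjusted p = 0.163) and passed with values as deposited, at 1.33 (limma adjusted p = 0.0107, with 11.6% of all probes called). It was 0.17 with samples 5 and 6 left out in each group (limma adjusted p = 0.706) and 0.34 with them left out at normal CO2 alone (limma adjusted p = 0.449). AT1G54500 differed by -0.09 (95% interval -0.56 to 0.38, limma adjusted p = 0.814). Its pair means stood in nearly the same order as those of PSBY, with 1.71, 1.40 and 2.23 in the high-CO2 pairs and 2.42, 1.92 and 1.37 in the normal-CO2 pairs. Leaving out samples 5 and 6 in each group gave a log2 difference of -0.49 (limma adjusted p = 0.0493, with 37.9% of all probes called). Over the remaining pair means, where no probe passed, it did not pass either (limma adjusted p = 0.25). After median scaling the difference was -0.67 (limma adjusted p = 0.283).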

How the data were processed

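The deposited table holds intensities on a linear scale, judged from its values. No source used here gives the array type, background correction or normalization behind the authors' intensities, and the unit of the scale and any centring stay unknown. All 12 sample columns were used. Intensities were quantile normalized over the 12 samples with zeros kept, raised to a floor of 0.0398 (12.5% of values lay at it) and put on the log2 scale. Limma 3.58.1 (R 4.3.3, statmod 1.5.0) was fitted with group as its only term to 3349 probes, after 90 at the floor in all samples were left out, with Benjamini-Hochberg adjustment at 0.05 over all probes. Percentile ranks were compared by exact permutation over samples. The procedure was run on simulated data in which the 12 samples were drawn independently. In the real data the correlation within pairs in the random-block fit was 0.785. The simulation therefore does not show how p-values over 12 samples behave with such pairs.

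The labels do not say that sample numbers shared by the groups pair samples, so the main fit used no such pairing. Residual correlations of same-numbered samples ran from -0.08 to 0.16 and were not compared with those of differently numbered samples. Probes were named through the platform annotation, in which 692 had 1 gene, 870 several and 1877 none, and RefSeq TAIR10.1 served for names and gene order only. Named genes are the 6 genes, the other listed photosystem genes with a single-gene probe, and the 2 most similar genes for each. The genes, lists and alternatives were chosen with earlier results of these data known.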

Additional observations from a re-analysis of the deposited data

Results flagged for a closer look

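Of 18 groups of 6 samples tested (9 genes in both groups), 2 held a sample whose gap to its nearest neighbour, as a share of the group's range, exceeded Dixon's 95% critical value for 6 samples. Chance gives about 1 in 20 such groups if values are independent, which pairs of alike samples are not. LPA19 in high-CO2 sample 2 had a log2 value of -2.90, while the remaining 5 lay from -1.58 to -1.06 (share 0.714). Without this sample the log2 difference of LPA19 was -0.90, against -1.14 with it. PSBW in high-CO2 sample 2 lay at 4.96, where the other 5 shared the value 5.05 (share 1.0), since PSBW ranked 14 from the brightest in that sample and 13 in the other 5 and quantile normalization gives equal ranks equal values. On the deposited scale that sample was the lowest of its group too, at 31.7 against 33.9 to 37.5.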

How the results depend on the processing

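The 418 probes called over 12 samples became 0 over pair means, 0 with pairs as a random block, 0 over pair means without samples 5 and 6, 1270 without samples 5 and 6 of both groups, 900 without samples 5 and 6 at high CO2, and 230 to 580 with single samples left out (266, 242, 230 and 240 when 1 of high-CO2 samples 1 to 4 was left out in turn, and 270 when normal-CO2 sample 5 was). LHB1B2 kept its direction in all 26 alternatives and lost its call in 4: median scaling (log2 difference 0.352), pair means (1.04), pairs as a random block (1.04) and pair means without samples 5 and 6 (1.06). Its rank difference lost its call over pair means (3.11 percentile points) and without samples 5 and 6 of both groups (3.11), where few splits exist. With single samples left out its log2 difference was 1.02 to 1.07 and its rank difference 3.03 to 3.24. PSBY and PSAN passed only without samples 5 and 6 of both groups (-0.824 and -0.431) and at normal CO2 alone (-0.670 and -0.470). PSBW turned sign when scaled by the median (-0.126), with samples 5 and 6 left out in each group (-0.00826, also over pair means) and at normal CO2 alone (-0.000735). PSB27 turned after median scaling (-0.50) and without normal-CO2 sample 3 (-0.0362), and AT1G54500 without high-CO2 sample 3 (0.0165). Leaving out single samples gave log2 differences of 0.189 to 0.413 for PSBW, -0.450 to -0.147 for PSBY, -0.357 to -0.204 for PSAN, -0.0362 to 0.274 for PSB27, -0.181 to 0.0165 for AT1G54500 and -1.27 to -0.898 for LPA19.

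Of the 15 gene pairs, 1 had an adjusted p under 0.05 over pair means, and 0 had with the deposited values and 0 with median-scaled ones. That pair, LHB1B2 with LPA19, follows the group difference for which LPA19 was picked and is not read as a correlation. Correlations turned sign for PSBW with PSAN as deposited (-0.0359) and, after median scaling, for PSB27 with PSBW (0.205), PSBY (0.492) and PSAN (0.515). With the sample number as a replicate block 460 probes passed, LHB1B2 at 1.04 (limma adjusted p = 0.00897), and this block changed no call of the 8 photosystem genes other than LPA19. The cause of these changes was not tested, and the number of samples limits the precision.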
